A study of Mus musculus with 36 samples.

Results

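The transcripts of 10 genes of autophagy and mitophagy were followed across the TA (tibialis anterior, a fast hindlimb muscle) and the soleus (a slow hindlimb muscle) of WT and ∆Ig3-MuSK mice. The 10 genes were Ulk1, Becn1, Tfeb, Map1lc3a, Map1lc3b, Gabarapl1, Sqstm1, Bnip3, Bnip3l and Ctsl, and each was found by its Ensembl gene ID among the 51912 IDs of the count tables. They were chosen by the genotype comparison in soleus, where the measured level of Bnip3l was higher in ∆Ig3-MuSK, so the comparison of genotypes in the soleus is given as a description without a test. Each genotype gave 9 RNA-seq libraries of TA and 9 of soleus, so there were 4 groups and 36 libraries in all. All mice were 3-month-old C57BL/6 males. The ∆Ig3-MuSK animals are homozygous in the germ line for a CRISPR-Cas9 deletion of the exons that encode the third immunoglobulin-like domain of MuSK (muscle-specific kinase), the domain that binds BMP, so every cell of the animal carries the allele. RNA came from whole muscle.

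Macroautophagy encloses cytoplasm in a double membrane, the autophagosome, and delivers it to the lysosome. ULK1 and Beclin 1 start the membrane, lipid-bound ATG8 proteins (the LC3 and GABARAP families) coat it, and receptors such as p62 tie cargo to the coat. In mitophagy the cargo is a mitochondrion, and BNIP3 and BNIP3L (also called NIX) sit in its outer membrane and bind ATG8 proteins directly. In skeletal muscle the genes of this pathway are known targets of FoxO factors and TFEB, and they are induced by fasting, denervation and other states of wasting.

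Total counts per library lay between 43492062 and 78660422, and each of the 10 genes had between 1447 and 28463 counts in a library. The summed level of 5 slow fiber markers (Myh7, Tnni1, Tnnt1, Myl2 and Atp2a2) was between 30.6 and 121 CPM (read counts relative to library size, after TMM over the 36 libraries) in the TA and between 15123 and 22678 CPM in the soleus. Musk itself lay between 2.87 and 5.58 CPM in WT TA, 2.62 and 4.01 CPM in ∆Ig3-MuSK TA, 12.5 and 18.4 CPM in WT soleus and 8.07 and 17.5 CPM in ∆Ig3-MuSK soleus. Counts over the whole gene do not isolate the deleted exons, and the log2 fold change for genotype was -0.46 ± 0.12 in the TA (edgeR adjusted p = 0.135) and -0.44 ± 0.13 in the soleus (edgeR adjusted p = 0.0978). With DESeq2 the adjusted p of Musk was 0.0246 for TA and 0.0400 for soleus. WT soleus replicates 1 and 2 stood apart from the other WT soleus libraries by their fast fiber transcripts. Their 5 fast fiber markers (Myh4, Tnni2, Tnnt3, Mylpf and Atp2a1) summed to 31464 and 28276 CPM, against at most 19528 CPM in the other 7. Values that rest on these libraries are therefore also given without them. Myh4, the myosin of type IIb fibers, had a median of 1283 CPM in WT soleus, against 7483 CPM for Atp2a1 and 6510 CPM for Tnnt3. The sum is therefore read as fast fiber transcripts in general and not as those of type IIb fibers. Soleus and TA libraries were made with different versions of the library kit, so a difference between muscles and a difference between kits cannot be told apart. In whole muscle, fewer cells of a type and less RNA per cell cannot be told apart either.

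The promoters of the 3 genes that were higher in soleus than in TA in both genotypes are shown. They were picked because these genes shared a direction between muscles and because an E-box occurs in a pair of them. An E-box is bound by the TFEB family among other factors. RefSeq promoters (GRCm38.p6, 250 bases before to 50 after the start site) were at hand for 7 of the 10 genes, and for Bnip3l, Map1lc3a and Becn1 no sequence is printed. Capitals mark the E-box (CACGTG) and the D-box (TTATGNAA, the letters bound by DBP, TEF and HLF), read on both strands. The sequences are those of the minus strand at chr7:138909457-138909756 for Bnip3, the plus strand at chr6:129532942-129533241 for Gabarapl1 and the minus strand at chr13:64370471-64370770 for Ctsl.
Bnip3: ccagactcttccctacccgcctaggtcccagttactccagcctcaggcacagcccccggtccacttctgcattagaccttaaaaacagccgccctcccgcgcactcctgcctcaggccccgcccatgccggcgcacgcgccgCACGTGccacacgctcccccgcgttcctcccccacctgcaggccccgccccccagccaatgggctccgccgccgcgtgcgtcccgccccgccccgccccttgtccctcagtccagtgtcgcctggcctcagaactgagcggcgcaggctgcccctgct
Gabarapl1: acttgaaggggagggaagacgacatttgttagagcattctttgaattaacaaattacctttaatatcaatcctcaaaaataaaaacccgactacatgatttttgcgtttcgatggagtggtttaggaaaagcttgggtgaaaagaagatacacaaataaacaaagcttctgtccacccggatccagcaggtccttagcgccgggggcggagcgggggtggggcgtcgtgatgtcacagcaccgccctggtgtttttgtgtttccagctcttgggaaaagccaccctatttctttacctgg
Ctsl: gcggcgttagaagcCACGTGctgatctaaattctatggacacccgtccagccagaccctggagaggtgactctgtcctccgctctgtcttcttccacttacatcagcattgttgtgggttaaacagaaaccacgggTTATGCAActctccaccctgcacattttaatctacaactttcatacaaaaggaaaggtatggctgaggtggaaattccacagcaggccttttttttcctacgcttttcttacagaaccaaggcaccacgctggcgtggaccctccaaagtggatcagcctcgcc
The E-box begins 108 bases before the RefSeq start site in Bnip3 and 236 bases before that in Ctsl. The whole Ctsl window lies inside the gene as annotated here (chr13:64359337-64370890, minus strand). Its RefSeq start site is thus an internal one, and its E-box and D-box lie within the annotated gene. Of the 9 promoters of the 7 genes, 2 held CACGTG, as did 7.15% of the 32851 promoters in the table. None of the 9 held the longer form TCACGTGA, which 0.974% of all promoters held, or the FoxO letters GTAAACA, which 3.65% held. The hypoxia letters GCGTG were found in 6 of the 9 and in 32.4% of all, and ACGTG, which lies inside CACGTG, in 2 of the 9 and 19.6% of all. The D-box was found in Ctsl, 114 bases before that RefSeq start site, and in 3.38% of all promoters. These matches describe letters within 300 bases and do not show that a factor binds there.

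Per kilobase of exon, Map1lc3a, Sqstm1 and Bnip3 had the highest levels of the 10 genes in every group. The length is that of all annotated exons of a gene, merged over its transcripts. It ran from 1181 bases for Map1lc3a to 7517 for Map1lc3b, with 7065 for Becn1 and 6489 for Ctsl. Which transcripts were expressed was not determined, so the order depends on this length and need not be that of transcript abundance. In WT TA the mean levels were 132 ± 14.9 CPM per kilobase (SD, n = 9) for Map1lc3a, 114 ± 16.3 for Sqstm1 and 47.1 ± 11.3 for Bnip3. In WT soleus Bnip3 led with 124 ± 13.4 CPM per kilobase, followed by Map1lc3a with 105 ± 9.22 and Sqstm1 with 102 ± 5.93, and the ranges of neighbors in this order overlapped. Gabarapl1 came next in both muscles, with 19.9 ± 0.889 in WT TA and 48.8 ± 8.45 in WT soleus. In WT TA the ranges of Map1lc3b, Ulk1, Bnip3l, Tfeb and Ctsl overlapped from each to the next, with means between 11.7 and 14.5 CPM per kilobase. By this measure Becn1 was lowest in each group, with 7.21 ± 0.434 in WT TA and 6.59 ± 0.296 in WT soleus. In ∆Ig3-MuSK, Bnip3 was likewise the third in the TA at 42.3 ± 3.28 CPM per kilobase and the first in the soleus at 129 ± 11.4.

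**Figure D1:**
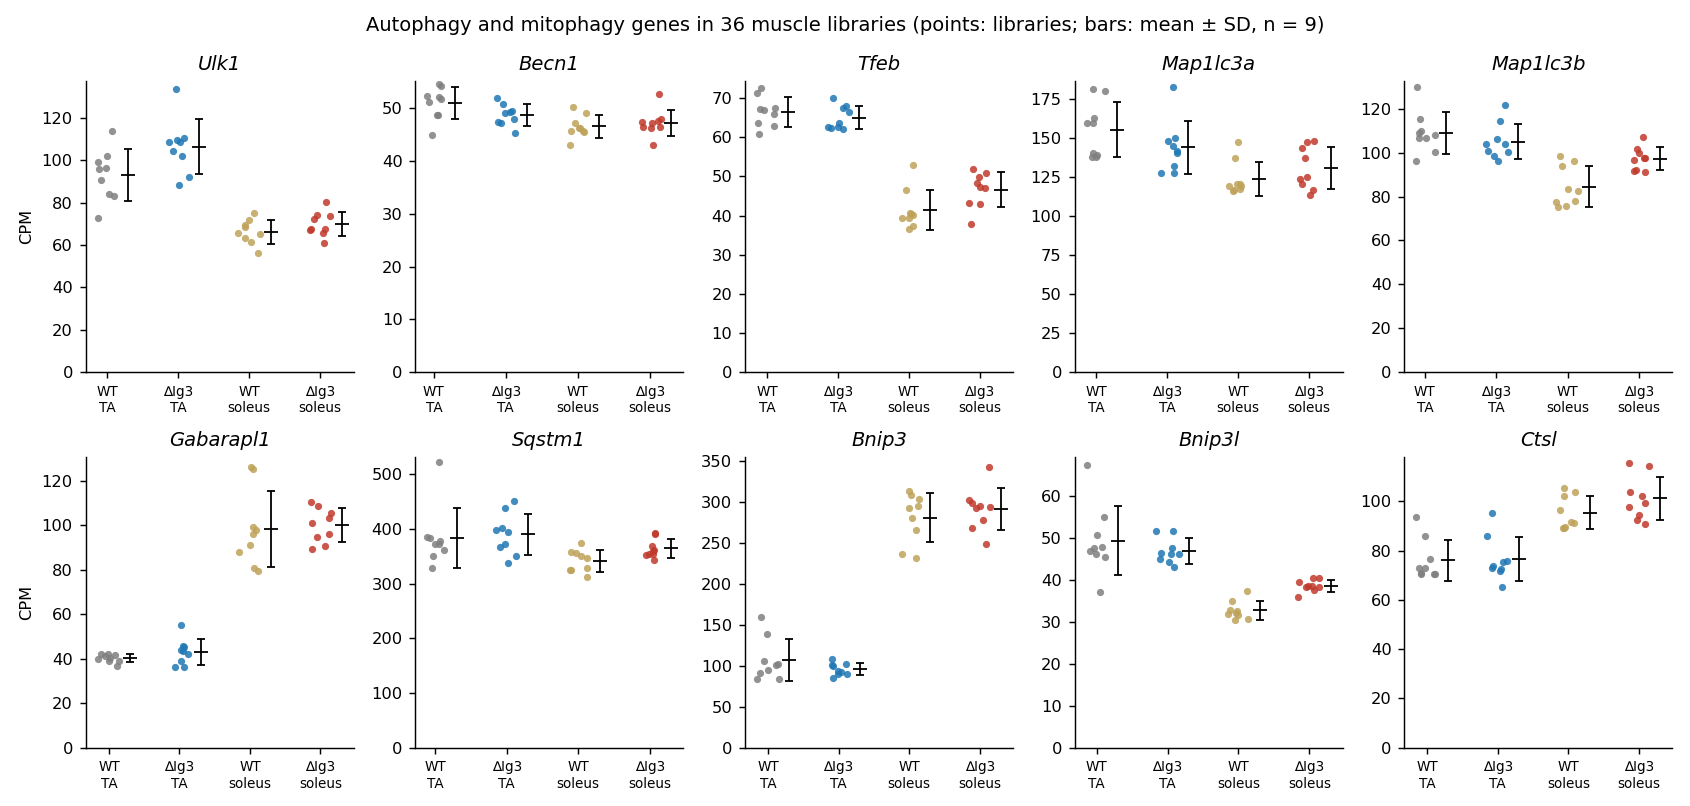
Each panel plots the level of a gene in CPM (y axis, from 0) for the 4 groups, with a point for each library and a bar for the mean ± SD of 9 libraries. Bnip3 and Gabarapl1 in the soleus lie above all TA libraries, Tfeb in the soleus lies below all TA libraries of its genotype, and Bnip3l in ∆Ig3-MuSK soleus sits between 35.8 and 40.5 CPM, with 8 of 9 libraries above the highest WT soleus library.

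The 2 muscles differed in most of the 10 genes. Bnip3 and Gabarapl1 were more than 2-fold higher in soleus than in TA, Ctsl was modestly higher, and Bnip3l, Tfeb and Ulk1 were lower, in both genotypes. In WT, 3 of the 10 were called higher and 5 lower by edgeR's quasi-likelihood test (adjusted p under 0.05 and at least 1.2-fold), where 57.5% of all 20841 genes tested were called. In ∆Ig3-MuSK, 3 were called higher and 3 lower, where 56.1% of all genes were called. The median log2 difference of the 10 genes was -0.25 in WT and -0.10 in ∆Ig3-MuSK, beside 0.018 and -0.0013 over all genes tested.

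Among the mitophagy receptors, Bnip3 and Bnip3l went opposite ways. Bnip3 (ENSMUSG00000078566, chr7:138890836-138909519) had 83.6 to 159 CPM in WT TA (median 100.5) and 232 to 314 CPM in WT soleus (median 293). In ∆Ig3-MuSK it had 85.2 to 108 CPM in TA (median 93.1) and 249 to 342 CPM in soleus (median 294). Every soleus library was above every TA library of its genotype. The log2 difference was 1.40 ± 0.092 (SE) in WT (edgeR adjusted p = 4.06e-16) and 1.60 ± 0.093 in ∆Ig3-MuSK (adjusted p = 9.23e-18). Bnip3l (ENSMUSG00000022051, chr14:66985239-67008877) had 37.0 to 67.4 CPM in WT TA (median 47.4) and 30.4 to 37.4 CPM in WT soleus (median 32.1). In ∆Ig3-MuSK it had 42.997 to 51.7 CPM in TA (median 46.1) and 35.8 to 40.5 CPM in soleus (median 38.4). In ∆Ig3-MuSK the muscles did not overlap, and in WT 8 of 9 soleus libraries were below the lowest TA library. The log2 difference of Bnip3l was -0.59 ± 0.064 in WT (adjusted p = 2.68e-10) and -0.28 ± 0.064 in ∆Ig3-MuSK (adjusted p = 0.000246). The latter is close to the 1.2-fold minimum, and without ∆Ig3-MuSK TA replicate 3 it was -0.26 and no longer called. The soleus libraries of both genotypes gave the comparison that named Bnip3l. Both of its differences between muscles thus hold values that chose it, and neither p is independent of that choice.

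Of the 3 ATG8 genes, Gabarapl1 was high in soleus and both LC3 genes were lower in WT. Gabarapl1 (ENSMUSG00000030161, chr6:129533160-129542346) had 36.6 to 42.0 CPM in WT TA and 79.6 to 126 CPM in WT soleus. In ∆Ig3-MuSK it had 36.3 to 55.3 CPM in TA and 89.2 to 110.2 CPM in soleus, and in neither genotype did the muscles overlap. The log2 difference was 1.29 ± 0.078 in WT (edgeR adjusted p = 2.71e-17) and 1.21 ± 0.077 in ∆Ig3-MuSK (adjusted p = 1.69e-16). Map1lc3a (ENSMUSG00000027602, chr2:155276297-155278073), which encodes LC3A, had medians of 159.9 CPM in WT TA and 119.7 CPM in WT soleus, and its log2 difference in WT was -0.33 ± 0.070 (adjusted p = 8.69e-05). Map1lc3b (ENSMUSG00000031812, chr8:121590361-121598760), which encodes LC3B, had 96.1 to 130 CPM in WT TA and 75.2 to 98.4 CPM in WT soleus, and its log2 difference in WT was -0.37 ± 0.057 (adjusted p = 6.02e-07). In ∆Ig3-MuSK neither LC3 gene was called. The log2 difference there was -0.14 for Map1lc3a (95% interval -0.28 to 0.0013, adjusted p = 0.0754) and -0.11 for Map1lc3b (95% interval -0.23 to 0.0046, adjusted p = 0.085). The 2 muscle comparisons differ by the same amount as the 2 genotype comparisons, so their difference holds the values that named the genes and was not tested.

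Ulk1 and Tfeb were lower in soleus in both genotypes, and Becn1 was not called. Ulk1 (ENSMUSG00000029512, chr5:110784488-110810097), the kinase that starts autophagosome formation, had 72.7 to 114 CPM in WT TA and 56.2 to 74.9 CPM in WT soleus, and its log2 difference was -0.49 ± 0.071 in WT (edgeR adjusted p = 1.45e-07) and -0.61 ± 0.071 in ∆Ig3-MuSK (adjusted p = 1.77e-09). Tfeb (ENSMUSG00000023990, chr17:47737030-47792419), a transcription factor of lysosomal and autophagy genes, had 60.7 to 72.6 CPM in WT TA and 36.6 to 53.0 CPM in WT soleus. It had 62.2 to 70.0 CPM in ∆Ig3-MuSK TA and 37.8 to 51.8 CPM in ∆Ig3-MuSK soleus, so the muscles did not overlap in either genotype. Its log2 difference was -0.68 ± 0.059 in WT (adjusted p = 6.34e-13) and -0.48 ± 0.058 in ∆Ig3-MuSK (adjusted p = 3.72e-09). Becn1 (ENSMUSG00000035086, chr11:101285952-101302286) encodes Beclin 1. It had 44.8 to 54.6 CPM in WT TA and 43.1 to 50.3 CPM in WT soleus, and its log2 difference of -0.13 ± 0.039 in WT was under the 1.2-fold minimum (adjusted p = 0.00348). In ∆Ig3-MuSK the log2 difference of Becn1 was -0.044 (95% interval -0.12 to 0.035).

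Sqstm1 (ENSMUSG00000015837, chr11:50199366-50210827), which encodes the cargo receptor p62, had 329 to 522 CPM in WT TA and 313 to 374 CPM in WT soleus. Its log2 difference between muscles was under the 1.2-fold minimum, at -0.17 ± 0.063 in WT (edgeR adjusted p = 0.0193) and -0.098 ± 0.063 in ∆Ig3-MuSK (adjusted p = 0.167). Ctsl (ENSMUSG00000021477, chr13:64359337-64370890), which encodes the lysosomal protease cathepsin L, had 70.3 to 93.9 CPM in WT TA and 89.2 to 105 CPM in WT soleus. All 9 WT soleus libraries were above the WT TA mean, and 4 were above its highest library. The log2 difference of Ctsl was 0.33 ± 0.064 in WT (adjusted p = 2.81e-05) and 0.40 ± 0.064 in ∆Ig3-MuSK (adjusted p = 1.0e-06). Without WT soleus replicates 1 and 2, 8 of the 10 genes were called between muscles in WT and 6 in ∆Ig3-MuSK, as many as with them.

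**Figure D2:**
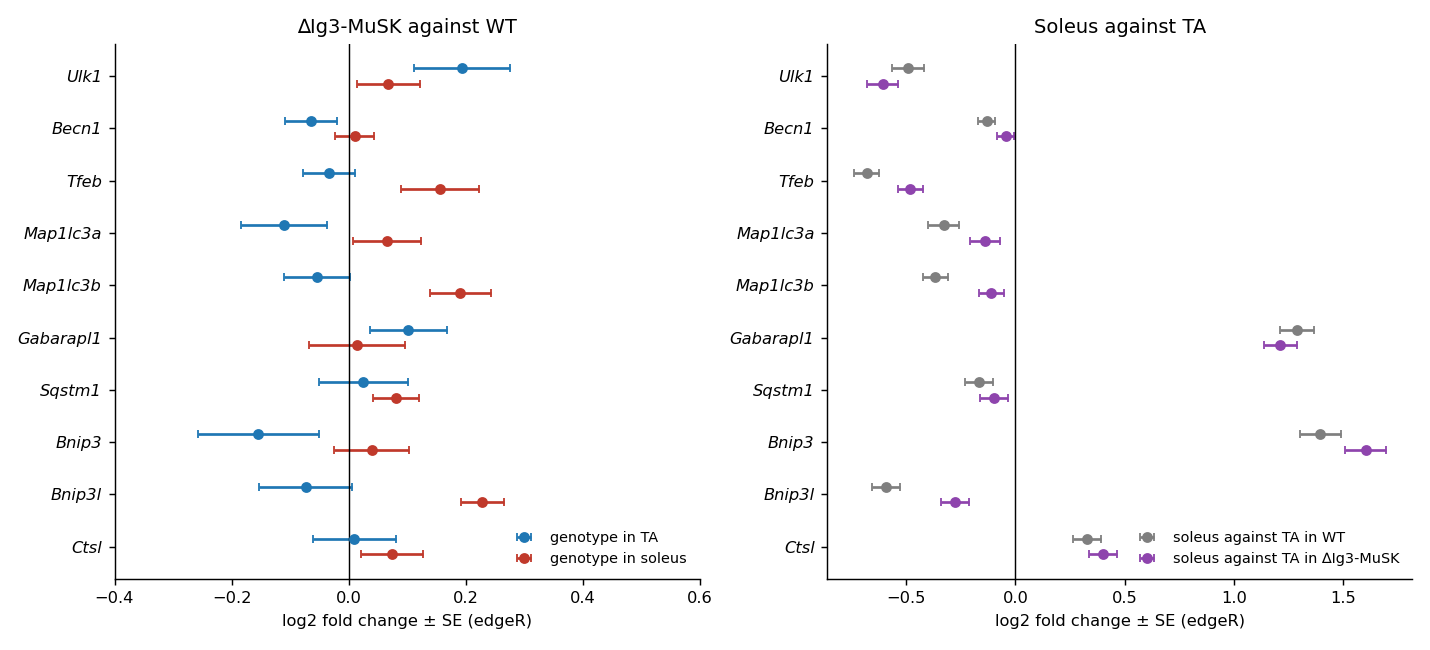
The left panel plots the log2 fold change of ∆Ig3-MuSK against WT in TA and soleus, and the right panel that of soleus against TA in each genotype, with bars for ± SE from edgeR and a different x scale in each panel. Values between genotypes lie within 0.25 of 0 in both muscles, while Bnip3 and Gabarapl1 lie beyond 1.2 between muscles.

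Exons of some of the 10 genes overlap those of other annotated genes. The libraries carry no strand information, and how the counting treated reads that fall on several genes is not given in the sources used here, so whether such reads were dropped or assigned is unknown. Gm45507 lies opposite Bnip3 and overlaps 22.3% of its exon length. Its counts were 45.3% to 57.0% of those of Bnip3 in a library, and its own log2 difference between muscles in WT was 1.52, so reads of the pair cannot be told apart by strand. Bnip3l-ps, a processed pseudogene that does not overlap Bnip3l, had 36.0% to 48.0% as many counts as Bnip3l. Its log2 values were -0.056 between genotypes in TA and 0.21 in soleus, beside -0.074 and 0.23 for Bnip3l, so the level of Bnip3l is uncertain if reads were assigned between these similar sequences. Exons of 1700101I11Rik overlap 28.3% of Gabarapl1, those of Cntd1 43.9% of Becn1, those of Gm47123 26.8% of Ctsl and those of Mrnip 17.3% of Sqstm1. The counts of Gm47123 were between 30 and 84 and those of Mrnip between 133 and 323 in a library, far under those of Ctsl and Sqstm1.

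In the TA, the ranges of ∆Ig3-MuSK and WT libraries overlapped for each of the 10 genes, and the log2 values ran from -0.15 for Bnip3 to 0.19 for Ulk1. None of the 10 was called by edgeR's quasi-likelihood test, where 0.0149% of the 20075 genes tested (3 genes) were called. At an unadjusted p under 0.05 there was 1 of the 10, Ulk1, where 24.1% of all genes passed, and 0 of the 10 were called by DESeq2 and by limma-voom. Of the 10 log2 values 4 were positive and 6 negative, with a median of -0.044 beside -0.0032 over all genes.

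Ulk1 had 72.7 to 114 CPM in WT TA (median 95.6) and 88.1 to 134 CPM in ∆Ig3-MuSK TA (median 109). In 7 of 9 ∆Ig3-MuSK libraries it was above the WT mean, but the groups overlapped. Its log2 fold change was 0.19 ± 0.082 (95% interval 0.024 to 0.36, unadjusted p = 0.0274, edgeR adjusted p = 0.173). The log2 fold change of Bnip3l was -0.074 (95% interval -0.24 to 0.091, adjusted p = 0.563), and 7 of 9 ∆Ig3-MuSK libraries were below the WT mean. Without WT TA replicate 5, the highest library at 67.4 CPM, it was -0.012, and without WT TA replicate 9, the lowest, it was -0.12. That of Bnip3 was -0.15 (95% interval -0.37 to 0.061, adjusted p = 0.346). Its WT libraries were spread widely, with replicates 5 and 3 at 159 and 139 CPM and no ∆Ig3-MuSK library above 108 CPM, and without WT TA replicate 5 the log2 value was -0.070. The 95% intervals of Map1lc3a (-0.26 to 0.042), Map1lc3b (-0.17 to 0.064), Gabarapl1 (-0.035 to 0.24), Sqstm1 (-0.13 to 0.18), Becn1 (-0.16 to 0.027), Ctsl (-0.14 to 0.16) and Tfeb (-0.13 to 0.059) all held 0 on the log2 scale. With 9 libraries per group, differences within these intervals are not excluded.

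In the soleus, all 10 genes had a higher fitted level in ∆Ig3-MuSK than in WT, by small amounts, where 9612 of all 19439 genes tested had a positive log2 value. This comparison chose the genes, so nothing is read from that count. The values of Bnip3, Map1lc3a, Gabarapl1 and Becn1 turned negative in some of the alternative runs. Bnip3l had 30.4 to 37.4 CPM in WT soleus (median 32.1) and 35.8 to 40.5 CPM in ∆Ig3-MuSK soleus (median 38.4). WT soleus replicates 1 and 2, at 37.4 and 34.9 CPM, were the highest WT libraries, the other 7 lay between 30.4 and 32.7 CPM, and only replicate 1 was within the ∆Ig3-MuSK range. The log2 value was 0.23 ± 0.037, which is 1.17-fold. Map1lc3b had 75.2 to 98.4 CPM in WT (median 82.5) and 91.3 to 107 CPM in ∆Ig3-MuSK (median 97.4), a log2 value of 0.19 ± 0.053, and Tfeb had medians of 40.3 and 47.4 CPM and a log2 value of 0.16 ± 0.067. The log2 values of the other 7 lay between 0.010 for Becn1 and 0.081 for Sqstm1. The median log2 value was 0.071, beside -0.0017 over all genes. Without WT soleus replicates 1 and 2 the log2 value was 0.27 for Bnip3l, 0.25 for Map1lc3b and 0.23 for Tfeb. That run left out WT libraries only, whose summed fast fiber markers were 31464 and 28276 CPM. ∆Ig3-MuSK soleus replicates 1, 8, 2 and 3 stayed in, at 27818, 27593, 26702 and 26456 CPM. Leaving out libraries with high sums from both genotypes was not tested.

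Fiber and other transcripts differed between the same soleus libraries, and their part in the values of the 10 genes was not tested beyond the fits given here. The sum of the 5 fast fiber markers lay between 14469 and 31464 CPM in WT soleus (median 18727). In ∆Ig3-MuSK soleus this sum lay between 20377 and 27818 CPM (median 21817). All 5 had positive log2 values in ∆Ig3-MuSK and 0 of 5 were called by edgeR, with 2 at an unadjusted p under 0.05. With the log2 of this sum as a covariate, a fit added after the data were seen, the log2 value between genotypes in the soleus was 0.18 for Bnip3l, 0.11 for Map1lc3b, 0.10 for Tfeb and -0.015 for Map1lc3a, and the number of genes called among all genes went from 185 to 0. The sum of 9 clock genes of the Dbp phase (Dbp, Tef, Hlf, Per1, Per2, Per3, Nr1d1, Nr1d2 and Ciart) lay between 343 and 465 CPM in WT soleus and between 461 and 699 CPM in ∆Ig3-MuSK soleus, with 7 of 9 called higher. In the TA this sum lay between 482 and 693 CPM in WT and between 648 and 875 CPM in ∆Ig3-MuSK, with 1 of 9 called higher. In each muscle all 9 clock genes had positive log2 values and 8 of 9 had an unadjusted p under 0.05, with median log2 values of 0.81 (TA) and 0.85 (soleus). The sum of 7 glucocorticoid responsive genes lay between 266 and 367 CPM in WT soleus and between 296 and 589 CPM in ∆Ig3-MuSK soleus, where replicates 4 and 5 were highest at 589 and 485 CPM. Of these 7 genes 6 had positive log2 values, 4 had an unadjusted p under 0.05 and 1 was called higher, with a median log2 value of 0.32. The sum of 14 immediate early genes lay between 207 and 364 CPM in WT soleus and between 162 and 323 CPM in ∆Ig3-MuSK soleus, with 2 of 14 called lower.

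Markers of other cell types were present in every group, and none was at 0 in any library. In WT and ∆Ig3-MuSK soleus, in that order, the summed levels lay between 571 and 1599 and between 329 and 889 CPM for 6 fibroblast and tendon markers, and between 244 and 326 and between 206 and 291 CPM for 4 endothelial markers. Those of 5 macrophage markers lay between 35.3 and 80.7 CPM and between 12.0 and 58.9 CPM. For 4 Schwann cell markers they lay between 36.5 and 59.5 CPM and between 35.6 and 88.4 CPM, and for 4 adipocyte markers between 14.6 and 97.4 CPM and between 6.76 and 91.3 CPM. Of the markers of these 5 types 0 were called between genotypes in the soleus by edgeR, and at an unadjusted p under 0.05 there were 3 fibroblast and tendon markers lower, 2 endothelial markers lower and 1 Schwann cell marker higher. Of 4 neuron markers 1 was called higher, with sums of 1.72 to 3.10 CPM in WT and 1.83 to 4.42 CPM in ∆Ig3-MuSK. For 5 erythroid markers the sums lay between 653 and 1142 CPM in WT soleus (median 768). In ∆Ig3-MuSK soleus they lay between 597 and 2325 CPM (median 761), with replicate 9 the highest. All 5 erythroid markers had positive log2 values in the soleus (median 0.29), and 0 were called or had an unadjusted p under 0.05. The atrophy ligases Fbxo32 and Trim63, which are often induced together with autophagy genes in wasting muscle, had log2 values of 0.069 and 0.085 in the soleus and -0.041 and 0.075 in the TA, and neither was called in either muscle or had an unadjusted p under 0.05.

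**Figure D3:**
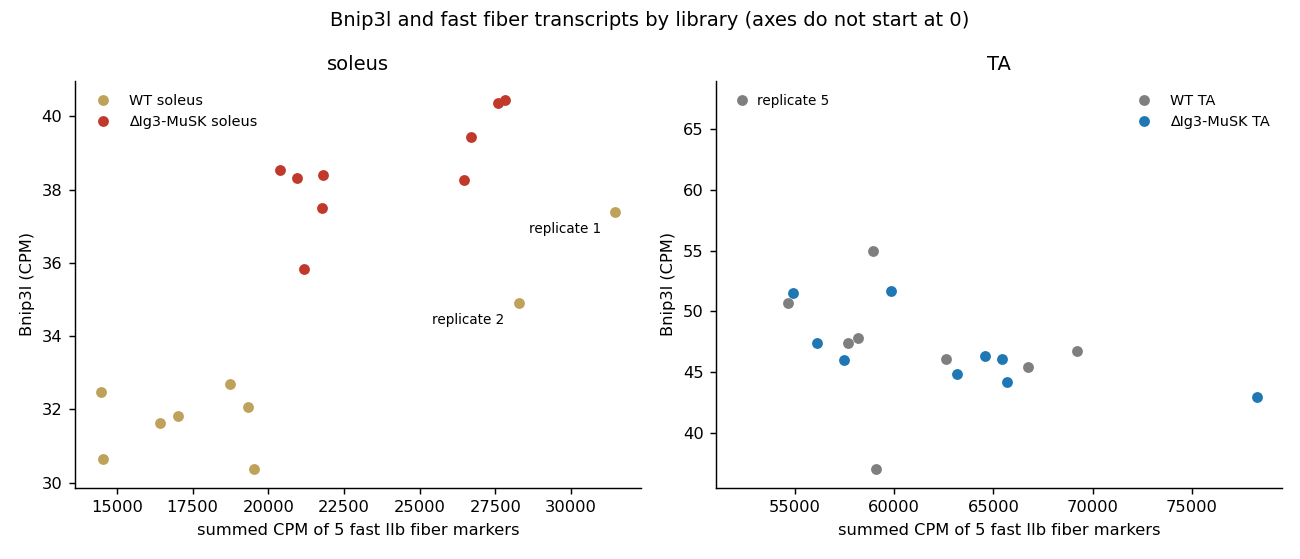
Each point is a library, for soleus (left) and TA (right), and neither axis starts at 0. The x axis is the summed CPM of the 5 fast fiber markers (labeled fast IIb), and the y axis is Bnip3l in CPM. WT soleus replicates 1 and 2 lie at 31464 and 28276 CPM of fast markers and hold the highest WT values of Bnip3l, while WT TA replicate 5 lies alone at 67.4 CPM of Bnip3l.

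Whether Bnip3l varied together with the other 9 genes from animal to animal was asked with each group's mean removed, which takes the genotype difference out. Over the 18 soleus libraries Pearson's r with Bnip3l was highest for Map1lc3b (r = 0.76, permutation p = 0.00062, Spearman's rho = 0.65, permutation p = 0.00982) and Map1lc3a (r = 0.69, permutation p = 0.00071, rho = 0.64, permutation p = 0.00275). Without the 2 libraries farthest from the median of Bnip3l (WT soleus replicates 1 and 5) these were 0.64 and 0.55. In the soleus 5 of 9 relations passed an adjusted permutation p of 0.05 (Map1lc3a, Map1lc3b, Sqstm1, Ulk1 and Ctsl), and all 5 had a positive r. Over the 18 TA libraries r was highest for Bnip3 (r = 0.81, permutation p = 0.00065, rho = 0.69, permutation p = 0.00317) and lowest for Ulk1 (r = -0.75, permutation p = 0.00051, rho = -0.70, permutation p = 0.00214). Without WT TA replicates 5 and 9 these were 0.59 and -0.53. WT TA replicate 5 had the lowest TMM scaling factor of the 36 libraries, at 0.811, followed by WT TA replicate 3 at 0.894. Among the WT TA libraries it held the highest Bnip3l, Bnip3 and Sqstm1 and the lowest Ulk1. The part of this library in the TA relations was not tested beyond that run. In the TA 5 of 9 passed (Bnip3, Map1lc3a, Ulk1, Becn1 and Ctsl). The share of all genes that pass is not given here, so nothing is read from these counts. In the TA an r at least as high was found for 3.44% of all genes for Bnip3, 9.20% for Becn1, 13.7% for Ctsl and 17.5% for Map1lc3a. For Ulk1, whose r was negative, it was 93.2%. In the soleus these shares were 0.458% for Map1lc3b, 1.48% for Map1lc3a, 5.39% for Sqstm1, 6.78% for Ulk1 and 6.93% for Ctsl.

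Within the 9 WT libraries of each muscle 9 of the 18 relations passed the adjusted exact permutation p, and within the 9 ∆Ig3-MuSK libraries 0 of 18 did. Bnip3l varied less in ∆Ig3-MuSK, with an SD of 3.00 CPM in TA and 1.43 CPM in soleus, against 8.28 and 2.21 CPM in WT. The share of all genes that pass within 9 libraries was not computed, and r was not compared between genotypes by a test. No difference between genotypes is read from these counts. Map1lc3b and Bnip3l had r = 0.79 in WT soleus and r = 0.67 in ∆Ig3-MuSK soleus, while Bnip3 and Bnip3l had r = -0.74 in WT soleus and r = 0.26 in ∆Ig3-MuSK soleus. Without WT soleus replicates 1 and 2, 5 of the 18 relations passed, all in the TA, and r in the soleus was 0.53 for Map1lc3b and 0.44 for Map1lc3a. An r over 0.5 with Bnip3l was found for 4 of the 9 genes and for 21.7% of all 20074 other genes in the TA, and for 5 of the 9 genes and 8.47% of 19438 genes in the soleus. Bnip3l was also set against the summed marker lists (28 relations, added after the data were seen). With the fast fiber markers in the soleus r was 0.72 (permutation p = 0.00439, adjusted p = 0.123, rho = 0.54, permutation p = 0.0373). Without the 2 libraries farthest in that sum r was 0.38. In the TA r with the same markers was -0.51 (permutation p = 0.0187, adjusted p = 0.135, rho = -0.75, permutation p = 0.00056).

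**Figure D4:**
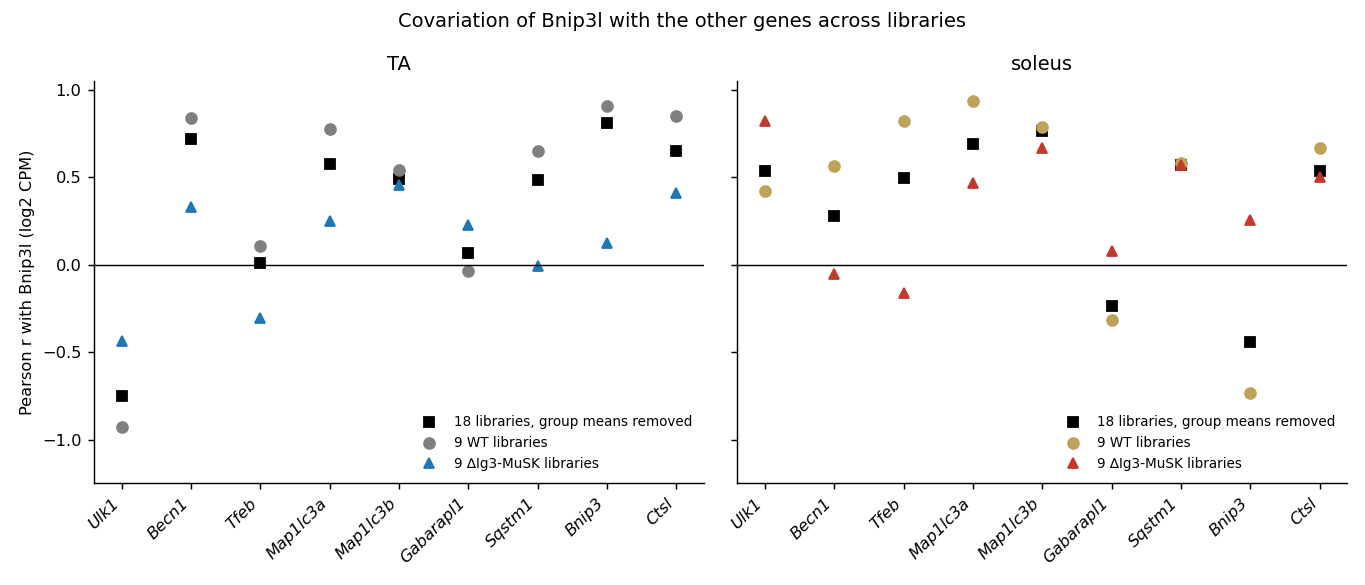
Pearson's r of log2 CPM between Bnip3l and each other gene (y axis) is plotted for TA (left) and soleus (right), over 18 libraries with group means removed (squares), the 9 WT libraries (circles) and the 9 ∆Ig3-MuSK libraries (triangles). Map1lc3b has a positive r in each of the 6 sets, and Ulk1 has a negative r in each TA set and a positive r in each soleus set.

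The genes with a pattern most like that of Bnip3l, by Pearson's r of deviations from the group means among genes with a mean of at least 10 CPM, were Car3 (r = 0.92), Mpst (0.89), Rpa1 (0.88), Vps72 (0.86) and Gm7367 (0.86) over 18 soleus libraries. Over 18 TA libraries they were Amz2 (r = 0.95), Gm16437 (0.94), Bnip3l-ps (0.94), Gm12353 (0.93) and Ankra2 (0.93). No gene was on both lists, and 8127 genes were ranked in the soleus and 8075 in the TA.

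In a list of 79 other genes of the pathway, genes were called between muscles but none between genotypes at the 1.2-fold minimum. All 79 were tested in each comparison. Between muscles in WT, 21 were called higher and 21 lower in soleus, where 57.5% of all genes were called, with a median log2 value of -0.0042. In ∆Ig3-MuSK 19 were called higher and 12 lower, where 56.1% of all genes were called, with a median of 0.0093. Atg13, a subunit of the ULK1 complex, had a log2 difference of 0.52 ± 0.041 in WT (edgeR adjusted p = 9.77e-14), the cargo receptor gene Nbr1 0.54 ± 0.047 (adjusted p = 1.26e-12) and Wipi1, which binds the phosphoinositide of the growing membrane, 0.50 ± 0.045 (adjusted p = 2.27e-12). Atg101, another subunit of the ULK1 complex, had -1.14 ± 0.079 (adjusted p = 1.60e-15), the mitophagy receptor gene Fkbp8 -0.79 ± 0.057 (adjusted p = 5.98e-15) and Foxo4 -0.69 ± 0.058 (adjusted p = 3.96e-13). In ∆Ig3-MuSK those with the smallest p were Retreg1 (a receptor for the endoplasmic reticulum, log2 difference 1.37 ± 0.11), Lamp2 (a lysosomal membrane protein, 0.61 ± 0.053) and Phb2 (an inner membrane mitophagy receptor, 0.58 ± 0.053) among the higher, and Mcoln1 (a lysosomal calcium channel, -0.60 ± 0.047), Rubcn (an inhibitor of autophagosome maturation, -0.65 ± 0.059) and Epg5 (a tether of autophagosome and lysosome, -1.06 ± 0.097) among the lower.

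By role, the other cargo receptors had 4 of 8 called higher and 0 lower in WT soleus, and the lysosomal genes 5 of 13 higher and 2 lower. Genes of autophagosome fusion had 1 of 10 higher and 4 lower, and those of ATG8 conjugation 1 of 10 higher and 3 lower. Of the other mitophagy genes 2 of 9 were higher and 2 lower. Over all genes, 30.2% were called higher and 27.3% lower.

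Between genotypes in the TA 0 of the 79 were called by edgeR, where 0.0149% of all genes were. At an unadjusted p under 0.05 there were 12 higher and 17 lower, where 12.2% and 12.0% of all genes were, DESeq2 called 0 and limma-voom 1. The smallest p values were those of Nrbf2, a subunit of the class III PI3-kinase complex, with a log2 value of -0.24 ± 0.069 (edgeR adjusted p = 0.145), and Ncoa4, the receptor for ferritin, with -0.16 ± 0.048 (adjusted p = 0.145). All 6 transcription factor genes of this list had positive log2 values in the TA, from 0.090 for Foxo4 to 0.54 for Foxo1. Over all 20075 genes tested 9901 were positive, and Tfeb, the transcription factor among the 10 genes, had -0.033. Foxo1 had 10.993 to 22.6 CPM in WT TA (median 14.6) and 13.6 to 45.8 CPM in ∆Ig3-MuSK TA (median 17.0), so the groups overlapped and the medians lay closer than the highest libraries. Foxo3 had medians of 22.003 and 24.4 CPM, with highest libraries at 27.3 and 38.9 CPM. In this role 0 of 6 genes were called by edgeR, with 3 at an unadjusted p under 0.05. Between genotypes in the soleus 0 of the 79 were called by edgeR or DESeq2, where 0.952% of all 19439 genes tested were called by edgeR. At an unadjusted p under 0.05 there were 16 higher and 5 lower, where 18.5% of all genes passed (8.48% higher and 10.1% lower). The median log2 value was 0.0071. Wdr45, which is named after its value was seen, was the only gene of the 79 with an adjusted p under 0.05 there, at a log2 value of 0.22 ± 0.045 (edgeR adjusted p = 0.0291) and 1.16-fold. With no fold minimum 1.17% of all genes were called there, and 0.478% were called higher. Of these 79 genes, 64 had a promoter in the RefSeq table, and 15 of their 82 promoters (18.3%) held CACGTG, beside 7.15% of all promoters. TCACGTGA was in 8.54% of the 82 and 0.974% of all, ACGTG in 45.1% and 19.6%, GCGTG in 62.2% and 32.4%, and TTATGNAA in 3.66% and 3.38%. GTAAACA was in 0 of the 82 and 3.65% of all. These shares are a description, with no test.

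**Figure D5:**
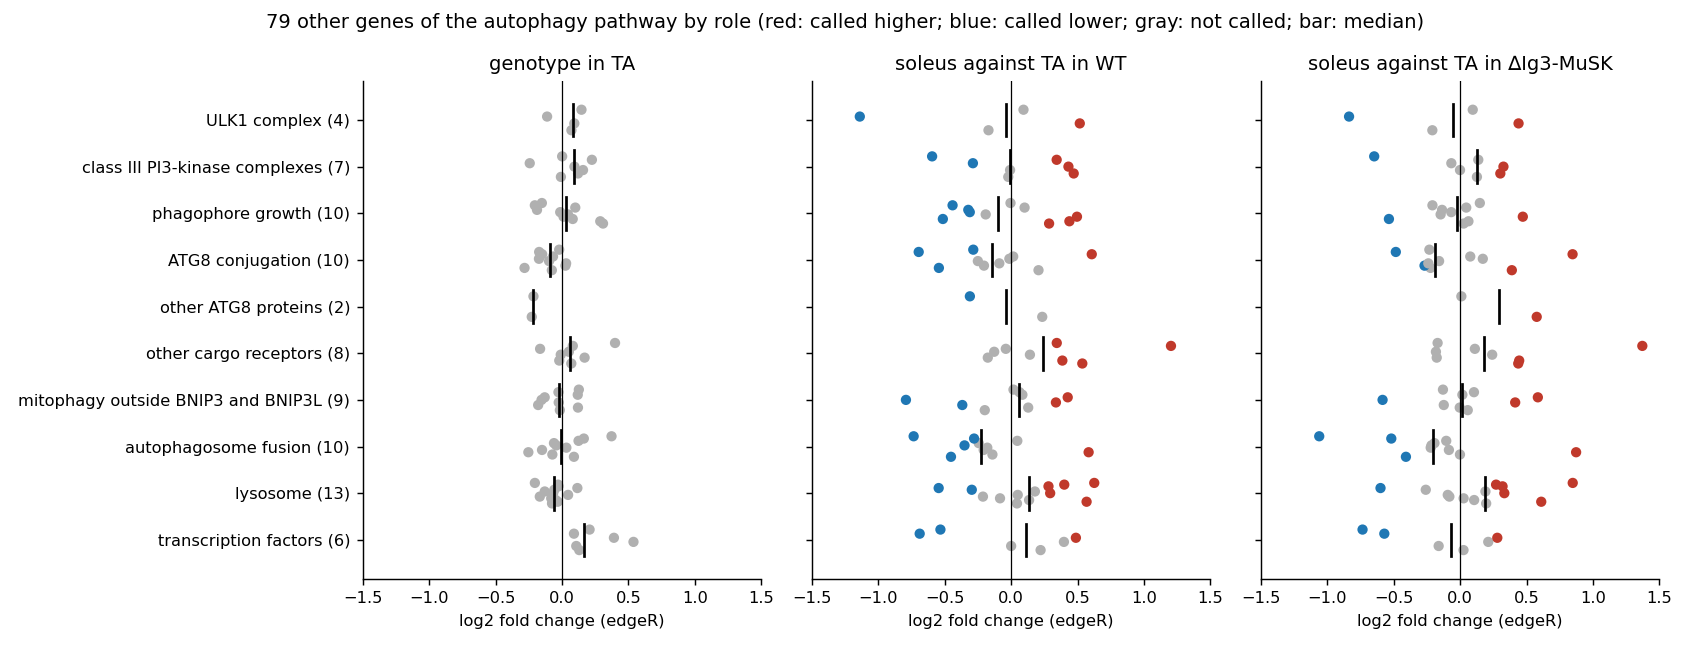
Each point is the edgeR log2 fold change (x axis) of a gene of the pathway list by role (y axis, with the number of genes), for genotype in TA and for soleus against TA in each genotype, where color marks a call and the black bar is the median of the role. No point is called in the TA genotype panel, and both directions are called in most roles between muscles.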

How the data were processed

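RNA-seq of whole TA and soleus muscle was made by the authors, who trimmed reads with Trimmomatic, aligned them to the mouse genome (GRCm38/mm10) with GSNAP and deposited raw HTSeq counts per Ensembl gene, with no strand information. FastQC and SAMtools are also in the submitters' processing notes. The annotation release and tool versions are not given in the sources used here. Total counts per library lay between 43492062 and 78660422. The tables held 0 columns of other samples, and 51633 of 51912 IDs were paired with a symbol.

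Low genes were removed by filterByExpr (minimum count 10 and minimum total 15), and the rest scaled with TMM and fitted with edgeR 4.0.16 in R 4.3.3 (quasi-likelihood test, Benjamini-Hochberg adjustment over all genes tested). A gene was called at an adjusted p under 0.05 and at least 1.2-fold. Genotypes were compared within each muscle over 18 libraries, and muscles in a fit of group means over 36 libraries. DESeq2 1.42.0 and limma 3.58.1 (voom with quality weights) were alternatives, as were other scaling and filters, replicate blocks and each library left out. The code was tested on simulated data. Levels are CPM, and covariation used log2 CPM (prior count 2) with 100000 permutations within genotype, or exact permutations within 9 libraries. No 2 libraries held identical values. Labels number the samples, and nothing in them says that numbers mark shared animals or days. P-values measure the spread between these samples.

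The members and lists were chosen with earlier results of these data known. Named genes were the 10, Musk, up to 3 pathway genes with the smallest p among those called in each direction (the 2 with the smallest p where none was called), and the 5 genes most correlated with Bnip3l in each muscle. Wdr45 in the soleus, and Foxo1, Foxo3 and Foxo4 in the TA genotype comparison, were named outside this rule.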

Additional observations from a re-analysis of the deposited data

Results flagged for a closer look

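In 5 of the 40 combinations of gene and group, 1 library lay farther from the others than Dixon's 95% limit for 9 samples, where chance gives about 1 in 20. Map1lc3a in ∆Ig3-MuSK TA replicate 3 was at 183 CPM, with the next library at 150.5 CPM. Gabarapl1 in ∆Ig3-MuSK TA replicate 2 was at 55.3 CPM, with the next at 45.5 CPM. Ulk1 in the same library was at 134 CPM, with the next at 111 CPM. Sqstm1 in WT TA replicate 5 was at 522 CPM, with the next at 385 CPM. Becn1 in ∆Ig3-MuSK soleus replicate 2 was at 52.7 CPM, with the next at 47.9 CPM. The causes were not tested.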

How the results depend on the processing

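None of the 10 genes was called between genotypes in the TA under any alternative run. In the soleus 1 of the 10 (Bnip3l) was called with no fold minimum and 1 without WT soleus replicates 1 and 2. The latter setting was chosen after seeing the data and left out WT libraries only. These soleus values chose the genes, so nothing is read from the counts. Of the pathway genes, 1 was called in the TA with limma-voom and 3 in 1 fit over 36 libraries, and in the soleus 1 with no fold minimum and 3 without both replicates. Over all genes in the TA, DESeq2 called 225, limma-voom 150, no filter 10 and 1 fit over 36 libraries 692, and leaving out a library gave 3 to 9. In the soleus these were 486 with DESeq2, 653 with limma-voom, 312 in 1 fit over 36 libraries, 1240 without both replicates and 0 with the fast fiber covariate, also added after seeing the data. Leaving out a soleus library gave 22 (without WT replicate 5) to 602 (without WT replicate 1). Between muscles in ∆Ig3-MuSK 54 of the 79 pathway genes were called with no fold minimum (26 higher and 28 lower). Among all 20841 genes tested, 7013 were called higher and 6820 lower in that setting. Of the 18 relations of Bnip3l, 0 passed in ∆Ig3-MuSK libraries apart and 5 without both replicates. The causes were not tested.

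With replicate number as a block, all-gene calls went to 0 for TA and 347 for soleus, and none of the 10 changed its call. Same-numbered WT and ∆Ig3-MuSK libraries correlated over 0.1 in 2 of 9 pairs in the TA (median -0.032, highest 0.451) and 3 of 9 in the soleus (median 0.0075, highest 0.359). Pairs with unlike numbers were not compared, so these values do not settle whether such libraries share more than a number. Libraries of TA and soleus with the same label number correlated over 0.1 in 7 of 8 pairs in ∆Ig3-MuSK (median 0.159, highest 0.351) and in 3 of 8 in WT (median 0.084), and the labels do not say whether such a number marks an animal. With the label number shared by TA and soleus as a block, 8 of the 10 genes were called between muscles in WT and 6 in ∆Ig3-MuSK, as without it. Over all genes, the alternative runs called between 9973 and 14028 genes between muscles in WT and between 9506 and 13833 in ∆Ig3-MuSK.

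Signs turned for small values. Between genotypes in the soleus, Bnip3 was -0.0043 with limma-voom and -0.010 without both replicates, Gabarapl1 -0.024 without both, and Map1lc3a -0.015 and Becn1 -0.022 with the covariate. Leaving out a library gave -0.037 to 0.047 for Ctsl and -0.0046 to 0.086 for Sqstm1 in the TA, and -0.018 to 0.067 for Gabarapl1 and -0.0074 to 0.024 for Becn1 in the soleus. The r with Bnip3l was -0.038 for Gabarapl1 in WT TA apart. In ∆Ig3-MuSK libraries apart it was -0.0059 for Sqstm1 and -0.31 for Tfeb in the TA, and 0.26 for Bnip3, 0.081 for Gabarapl1, -0.056 for Becn1 and -0.16 for Tfeb in the soleus. Without both replicates it was 0.020 for Bnip3, 0.088 for Gabarapl1, -0.16 for Becn1 and -0.15 for Tfeb in the soleus.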
